A study of Mus musculus with 8 samples.

Results

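Cytosolic ribosomal protein genes were followed in mouse embryonic fibroblasts (MEFs), connective tissue cells cultured from embryos. Members were the genes named Rpsa, Rplp0, Rplp1 or Rplp2, or Rpl or Rps followed by a number and at most 1 of the letters a, l or x. This gave 83 of the 55358 genes in the files, 51 named for the large and 32 for the small ribosomal subunit. Rpl6l, Rpl32l and Rps4l among them are annotated in a pseudogene class. Of the 83, 79 reached 1 FPKM in at least 2 libraries and were tested among 13693 genes. FPKM are fragments per kilobase of transcript and per 1000000 mapped fragments, which adjusts for transcript length and library depth. Library totals still differed, from 536816 to 584995 FPKM, so comparisons between libraries can depend on scaling. The 4 untested members were Rpl10l and Rpl39l, listed at 0 in every library, Rpl3l, with at most 0.0628 FPKM, and Rpl32l, with at most 0.446 FPKM.

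The 8 libraries fell into 4 groups of 2, namely wild-type (WT) cells and Arid5a-/- cells (KO), each without IL-6 or with 100 ng/ml of IL-6 for 24 h. IL-6 is an inflammatory cytokine, and Arid5a is an RNA-binding protein known for stabilising mRNAs such as that of IL-6. Polyadenylated RNA was sequenced to look for long noncoding RNAs downstream of IL-6 and Arid5a, and the protein-coding genes were measured in the same libraries. How Arid5a was disrupted, how many clones or embryos were used and whether replicates were separate cultures are not given in the sources used here. P-values therefore reflect only how far these libraries differed from each other, and that spread could be technical.

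Each ribosome carries 1 copy of nearly every ribosomal protein, and cells make the proteins in matched amounts that follow the supply of ribosomal RNA. Their mRNAs are short and abundant and mostly begin with a C followed by a run of pyrimidines, the terminal oligopyrimidine (TOP) motif, through which mTORC1 and the binding protein LARP1 control translation and stability. Myc raises transcription of many of the genes, and proteins left out of ribosomes, above all Rpl5 and Rpl11 bound to 5S ribosomal RNA, can hold back Mdm2 and so stabilise p53.

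Arid5a itself stood without IL-6 at 18.7 and 15.9 FPKM in WT against 5.51 and 6.85 in KO, and with IL-6 at 30.9 and 31.0 against 8.47 and 8.15, so the labels' order held in every library but RNA of the gene was still present in KO. Estimated depth was 36700000 to 46100000 fragments per library, and 12570 to 12699 genes reached 1 FPKM. The summed level of 9 fibroblast markers was 3264 to 4337 FPKM over the groups, but its members moved apart, with 3 higher and 5 lower in untreated KO (median -1.08 log2). Vim went from 2288 and 2183 to 1022 and 1088 FPKM, Pdgfrb from 50.3 and 48.7 to 6.97 and 7.40, and Dcn from 157 and 175 to 783 and 805. All 4 mesothelial markers were higher in KO, with a sum of 1088 to 1143 against 38.3 to 52.7 FPKM in WT. Of 4 epithelial markers, with sums of 67.8 to 72.8 in KO against 0.618 to 1.19 FPKM in WT, Krt14 and Cdh1 were higher, Krt5 was at 0 throughout and Epcam was at 0.617 and 0.636 FPKM in untreated KO and 0.588 and 0.662 in untreated WT. Of 4 endothelial markers, with sums of 10.82 to 12.03 against 0.0689 to 0.181 FPKM, Tek and Kdr were higher, while the defining Cdh5 and Pecam1 stayed near 0 in every library. The Y-linked genes tested (8) had a median KO minus WT difference of -2.45 log2. The part of these differences between the WT and KO cells in the results on ribosomal protein genes was not tested, and in bulk RNA fewer cells of a type and less RNA per cell cannot be told apart.

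Ribosomal protein mRNAs were among the most abundant of these cells. Of the 50 genes with the highest mean FPKM, 21 were members, and of the 100 highest, 46 were. Mean levels lay over 1000 FPKM for 20 members and between 100 and 1000 FPKM for 58. Among the highest were Rpl41, which encodes a very short basic peptide of the large subunit, at 3574 FPKM, Rplp1 of the P stalk at 2982, Rps15 at 2487 and Rplp0 at 2456. The lowest among those tested were Rps4l at 2.202 FPKM and Rpl6l at 113, both copies of a pseudogene class, Rpl21 at 189, Rps27l at 221 and Rpl27 at 333. Replicates lay close together, with a median SD over members of 0.043 on the log2(FPKM + 1) scale.

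Members took 12.6% and 12.4% of all FPKM in untreated WT libraries (12.5% ± 0.163, SD, n = 2) and 13.2% and 13.6% in WT with IL-6 (13.4% ± 0.226, n = 2). In KO they took 12.1% and 12.5% without IL-6 (12.3% ± 0.247, n = 2) and 12.7% and 12.7% with IL-6 (12.7% ± 0.035, n = 2). Both WT libraries with IL-6 lay above the other 6 libraries. Without the 3 highest members this order was lost, with 11.28% and 11.5% in WT with IL-6 and 11.38% and 11.39% in KO with IL-6. With 2 libraries against 2, an exact permutation test cannot give a two-sided p below 0.33, so the shares carry no test.

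**Figure D1:**
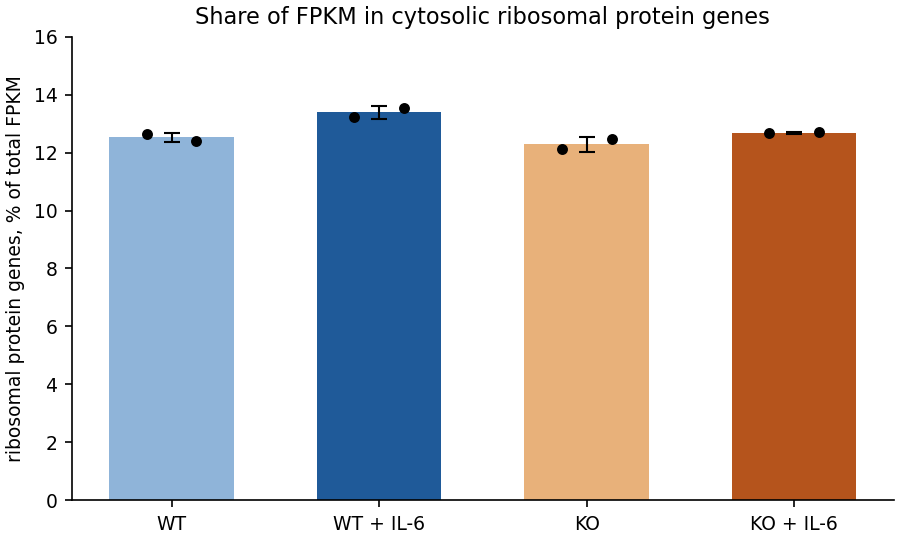
Percent of total FPKM in the 83 cytosolic ribosomal protein genes (y axis, from 0) in the 4 groups (x axis), with 1 point per library, bars at the group mean and error bars of 1 SD. The 2 WT libraries with IL-6, at 13.2% and 13.6%, lie above the other 6.

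Start sites were read from RefSeq promoter windows of GRCm38.p6, which were matched by symbol for 61 of the 83 members. Their 73 windows were set beside all 32851 windows, each covering 250 bases before to 50 after an annotated start. A C at the annotated start followed by at least 4 pyrimidines was present in 14 member windows (19.2%, against 2.5% of all), and within 5 bases of the start in 31 (42.5%, against 18.3%). Searched on both strands, CCGGAAG was found in 26 (35.6%, against 8.9%), TCTCGCGA in 11 (15.1%, against 1.0%), AAGATGGC in 7 (9.6%, against 2.7%), GGGCGG in 42 (57.5%, against 35.7%) and TATAAA in 7 (9.6%, against 13.6%). The following 30 bases around the start, in which the annotated first transcribed base is base 16, are shown because they carry the pyrimidine run of members from both subunits, given in capitals.
Rps6, chr4:86857353-86857382, minus strand: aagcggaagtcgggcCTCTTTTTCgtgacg
Rps27, chr3:90213634-90213663, minus strand: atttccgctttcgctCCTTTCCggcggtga
Rps18, chr17:33955651-33955680, minus strand: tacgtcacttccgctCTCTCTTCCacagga
Rpl28, chr7:4792950-4792979, plus strand: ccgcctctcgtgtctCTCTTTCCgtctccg
Rplp2, chr7:141447636-141447665, plus strand: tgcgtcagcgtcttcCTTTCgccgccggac
The windows around the annotated starts of Rps15 and Rpl41, both lower in KO than in WT, held no such run at the annotated base.
Rps15, chr10:80292416-80292445, plus strand: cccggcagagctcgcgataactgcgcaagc
Rpl41, chr10:128549154-128549183, minus strand: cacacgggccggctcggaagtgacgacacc
Rps19 and Rps28, which both rose with IL-6 in WT, carried TCTCGCGA on both strands as overlapping matches of a palindrome, given in capitals with its flanks.
Rps19, chr7:24884577-24884606, plus strand: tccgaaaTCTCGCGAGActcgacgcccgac
Rps28, chr17:33824548-33824577, minus strand: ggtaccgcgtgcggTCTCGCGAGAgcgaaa
These windows are shown because the match lies within the 30 bases around the start. Of all 10 members with the motif in the longer window, 5 rose with IL-6 in WT (median 0.17 log2, from -0.00 to 0.255), and of the 47 tested members with a window that lacks it, 21 rose (median 0.15).
A match is a description of letters only, and a window without one says nothing about where transcription started in these cells.

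Many ribosomal protein mRNAs rose by a small amount with IL-6 in WT fibroblasts. Of the 79 tested members, 34 rose (43.0%) and 0 fell at an adjusted p below 0.05 (limma on log2(FPKM + 1), Benjamini-Hochberg over all tested genes), where 8.3% of all genes rose and 7.41% fell. Unadjusted p was below 0.05 for 61 members. The median change was 0.15 log2, or 10.8%, with an interquartile range of 0.12 to 0.18, and the median over all tested genes was -0.00. In 71 members both IL-6 libraries lay above both untreated ones (27.5% of all genes), and in 2 both lay below (28.8% of all genes). The estimate was positive for 75 members, 0 for Rps4l, and negative for Rpl12, Rps27l and Rps2. The 15 tested mitochondrially encoded genes, none of them called, had a median of 0.17 with 14 positive in WT and of 0.11 with 15 positive in KO, and their part in the members' values was not tested.

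**Figure D2:**
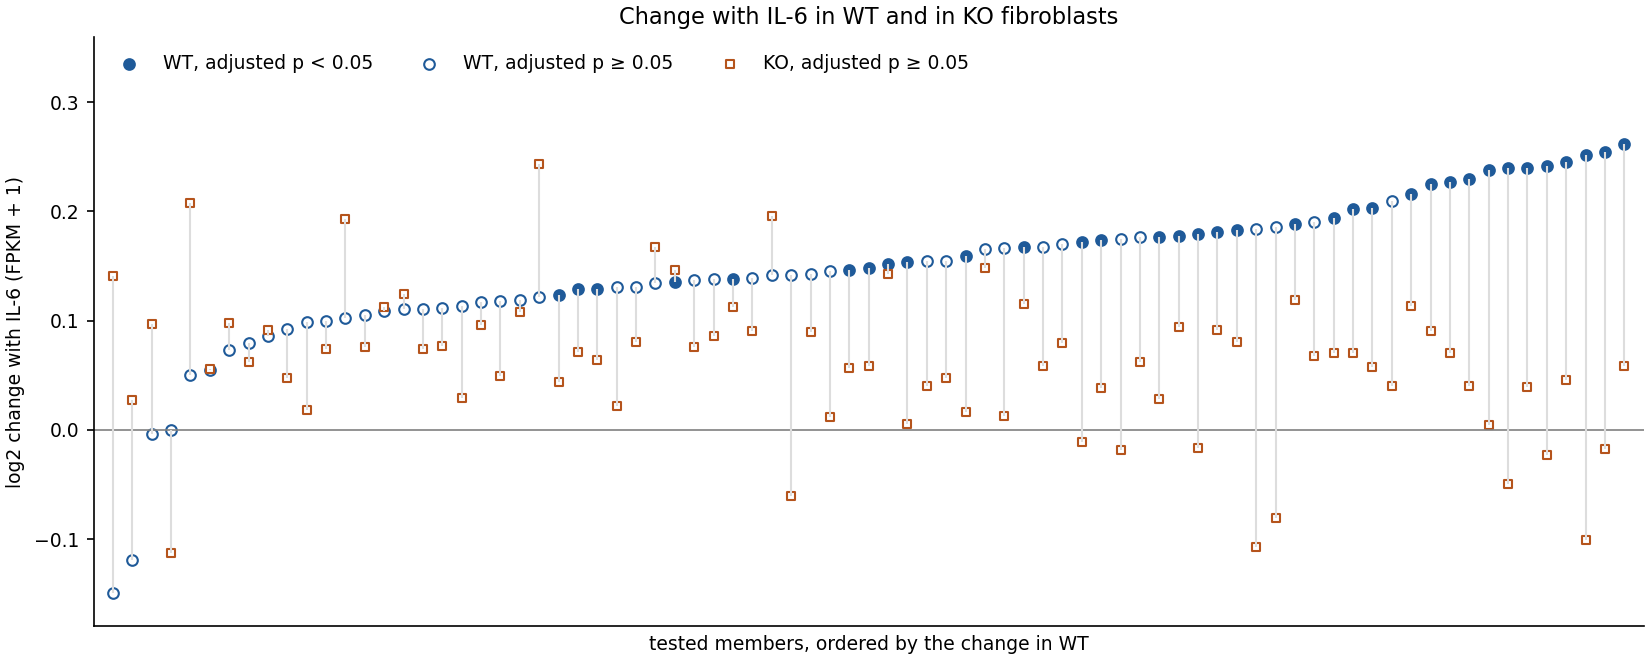
Log2 change of FPKM + 1 with IL-6 (y axis) for the 79 tested members, ordered by the change in WT cells (x axis), in WT and in KO cells, with filled points for calls at an adjusted p below 0.05. WT points are filled for 34 members and KO points for 0, and the WT points lie above the KO points for 65 members.

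The count of 34 depended on single libraries and on scaling. It was 12 without WT replicate 1, 8 without WT replicate 2, 17 without WT with IL-6 replicate 1, 5 without WT with IL-6 replicate 2, and 20 without either KO library with IL-6. After quantile normalization 3 members rose and 1 fell, with equal total FPKM 13 rose and 1 fell, and with only the 4 WT libraries in the fit 0 rose, while the median change was 0.04 log2 after quantile normalization and 0.09 with equal totals. Members that kept the call without each library in turn included Rps16, Rps27 and Rpl27a, but these too lost it with only the 4 WT libraries in the fit.

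Rps16, whose tail reaches the decoding centre (chr7:28350652-28353155, plus strand, GRCm38), went from 533 and 517 to 614 and 624 FPKM (0.24 ± 0.035 log2, SE, adjusted p = 0.00453). Rps27, a zinc finger protein of the small subunit, went from 1359 and 1409 to 1612 and 1658 FPKM (0.24 ± 0.0381, adjusted p = 0.00623). Rpl27a of the large subunit went from 341 and 339 to 387 and 389 FPKM (0.19 ± 0.0298, adjusted p = 0.00615). In each of these 3 genes both treated WT libraries were higher than both untreated ones.

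Other members with large rises were less stable. Rps28, near the mRNA exit of the small subunit (chr17:33819027-33824562, minus strand), was at 929 and 901 FPKM without and 1070 and 1109 with IL-6 in WT (0.25 ± 0.0528, adjusted p = 0.0196). Rps19, needed for maturation of the small subunit RNA (chr7:24884371-24889806, plus strand), was at 572 and 570, then 660 and 703 FPKM (0.25 ± 0.0483, adjusted p = 0.0133). Neither gene's groups overlapped. Rpl18 of the large subunit (chr7:45715457-45720836, plus strand) was at 499 and 448, then 560 and 575 FPKM (0.26 ± 0.0638, adjusted p = 0.0335). Rps26, which contacts mRNA upstream of the start codon (chr10:128624534-128626747, minus strand), was at 978 and 886, then 1082 and 1119 FPKM (0.24 ± 0.0646, adjusted p = 0.0458). These calls were lost without single libraries. Without any 1 of the 4 WT libraries, Rps28 had an adjusted p of 0.0563 to 0.108. Rps19 lost the call without WT replicate 1 (0.0631), WT replicate 2 (0.069) or WT with IL-6 replicate 2 (0.0694). Rpl18 lost it without WT replicate 2 (0.154) or WT with IL-6 replicate 1 (0.0974) or 2 (0.135). Rps26 lost it without WT replicate 2 (0.21), WT with IL-6 replicate 1 (0.111) or 2 (0.173), or KO with IL-6 replicate 1 (0.0734) or 2 (0.0732).

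Both subunits took part. Of the large subunit, 20 of 47 tested members rose (median 0.14 log2), and of the small subunit 14 of 32 (median 0.16), where 8.3% of all genes rose. Among 14 proteins of the small subunit head, which grips mRNA and tRNA, 7 rose (median 0.17). Of 8 proteins lining or surrounding the exit of the tunnel through which new peptides leave, 3 rose (median 0.13). Of the 21 members whose human counterparts are mutated in inherited marrow failure (Diamond-Blackfan anaemia), 8 rose (median 0.15).

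The P stalk, formed by Rplp0, Rplp1 and Rplp2 on a base that includes Rpl12 and known for recruiting elongation factors, held 0 calls among its 4 members. Rplp0 changed by 0.17 log2 (adjusted p = 0.0722), Rplp1 by 0.13 (0.236), Rplp2 by 0.11 (0.282) and Rpl12 by -0.00. Of the 5S particle, Rpl5 rose from 553 and 563 to 624 and 636 FPKM (0.17 ± 0.041, adjusted p = 0.0298; 0.0814 to 0.123 without any 1 WT library), while Rpl11 was at 830 and 805, then 874 and 889 FPKM (0.11, adjusted p = 0.0993). Rpsa, also known as the laminin receptor precursor, changed by 0.11 (adjusted p = 0.163), Rps6, the S6 kinase substrate, by 0.15 (0.0551), and Rps27a, made as a fusion with ubiquitin, by 0.14 (0.108). Rps2, a small subunit protein at the mRNA entry, was at 1355 and 1243 FPKM without and 1119 and 1222 with IL-6 (-0.15 ± 0.0705, adjusted p = 0.212), and Rps27l at 279 and 280, then 250 and 264 (-0.12 ± 0.0408, adjusted p = 0.0959).

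Abundance and transcript length were compared as far as the files allow. Of the 867 other genes with a mean of at least 100 FPKM, 119 rose with IL-6 in WT (13.7%) and their median change was 0.01 log2. Among members with a mean transcript length of up to 600 nucleotides the median was 0.15 (32 members), against 0.04 in 85 other genes of at least 100 FPKM. For 600 to 1000 nucleotides it was 0.15 (37 members) against -0.00, and for 1000 to 2000 it was 0.14 (10 members) against 0.02. Members with the pyrimidine run at the annotated start had a median of 0.15 (13 tested), and those without it 0.15 (44 tested).

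Genes outside the naming rule that work with these proteins were read from lists. Of the 4 subunit proteins with other names, 3 rose in WT, namely Fau (0.29 ± 0.0577, adjusted p = 0.0154), Rack1 (0.19, adjusted p = 0.0415) and Rps3a1 (0.15, adjusted p = 0.0369). Of 17 other TOP mRNAs 7 rose and 0 fell (median 0.15), and of 8 tested elongation and release factors 4 rose and 0 fell (median 0.15), among them Eef1b2 (0.21, adjusted p = 0.0132), an exchange factor of elongation factor 1. These lists overlap in part, so the same rise can stand in more than 1 of the counts. Rack1 (0.0519 to 0.166) and Rps3a1 (0.0633 to 0.156) lost the call without any 1 library other than WT with IL-6 replicate 1. Fau lost it without WT replicate 2 or without either treated WT library (0.0676 to 0.0918), and Eef1b2 without either untreated WT library or WT with IL-6 replicate 2 (0.0548 to 0.0719). Ribosome assembly factors held 10 rises and 0 falls among 54 (median 0.08), such as Sbds, which releases eIF6 from new large subunits (0.21 ± 0.033, adjusted p = 0.00587). Initiation factors held 5 rises among 36 (median 0.03), such as Eif1a (0.37 ± 0.047, adjusted p = 0.00231). Of the 79 mitochondrial ribosomal proteins, which build a separate ribosome, 1 rose and 2 fell (median -0.00). Beside all of these lists, 8.3% of all genes rose and 7.41% fell.

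Regulators of the genes were measured beside them. Of 11 genes of the Myc network, 2 rose and 2 fell with IL-6 in WT (median -0.008 log2). Of 18 genes that control TOP mRNAs through mTORC1, 3 rose and 1 fell (median -0.003), where 8.3% of all genes rose and 7.41% fell. Myc went from 25.4 and 27.4 FPKM to 34.3 and 31.9 in WT (0.31 ± 0.0579, adjusted p = 0.0117), and the call was lost without WT replicate 1 or WT with IL-6 replicate 1 (0.0627 to 0.0692). In KO, Myc was at 26.1 and 25.9, then 27.0 and 29.0 FPKM. Mtor changed by 0.11 log2 in WT (adjusted p = 0.346) and Larp1 by 0.11 (0.125). Eif4ebp1, a repressor of cap-dependent translation that mTORC1 inactivates, rose by 0.34 ± 0.051 (adjusted p = 0.00487), and Sesn1, a p53 target that restrains mTORC1, fell by 0.28 on the log2 scale (SE 0.045, adjusted p = 0.00627).

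In KO cells no member passed the test with IL-6. The counts were 0 higher and 0 lower of 79 (limma, Benjamini-Hochberg), where 0.0219% of all genes were called higher and 0.0% lower, and 15 members had an unadjusted p below 0.05. The median change was 0.06 log2, or 4.5%, and 68 members had a positive estimate. Both KO libraries with IL-6 lay above both untreated KO libraries for 46 members (19.6% of all genes) and below for 3 (18.8% of all genes). The largest estimates were 0.24 for Rps21 (adjusted p = 0.36), 0.21 for Rpl39 (0.437) and 0.20 for Rps27a (0.415).

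The IL-6 changes in KO and WT were compared directly by the interaction term. It called 3 of 79 members, all with a smaller change in KO, where 6.06% of all genes were called, 3.52% in that direction and 2.54% in the other. The median difference over members was -0.09 log2. The estimate was larger in WT for 65 members and in KO for 14. The median depended on scaling and was -0.045 with equal total FPKM, -0.053 with equal totals of non-member genes and -0.00 after quantile normalization. Rps28 and Rps16, both of the head of the small subunit, were among the 3 called members. Rps28, with a difference of -0.35 ± 0.0746 (adjusted p = 0.0381), changed by 0.25 in WT and by -0.10 in KO, where it stood at 987 and 1088 FPKM without and 982 and 951 with IL-6. Rps16 was at 735 and 758, then 750 and 747 FPKM in KO, a change of 0.00 (difference -0.23 ± 0.0494, adjusted p = 0.0381). In WT the treated libraries of Rps28 and Rps16 lay above the untreated ones, and in KO they overlapped for Rps16 and lay below for Rps28.

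Few of these differences held up when a library was left out. Without KO replicate 1 only Rps28 was called, without WT replicate 1 the count was 1 and included neither Rps28 nor Rps16, and 0 members were called without any of the other 6 libraries. Adjusted p in the lost calls was 0.0803 to 0.128 for Rps28 and 0.0705 to 0.128 for Rps16, and 0 members were called after quantile normalization or without the filter on low values. Near-identical copies of Rps28 carried 56.1% as much FPKM as the gene itself, and 56.9% of the FPKM of Rps16 in untreated WT was assigned to a transcript of the retained-intron class.

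**Figure D3:**
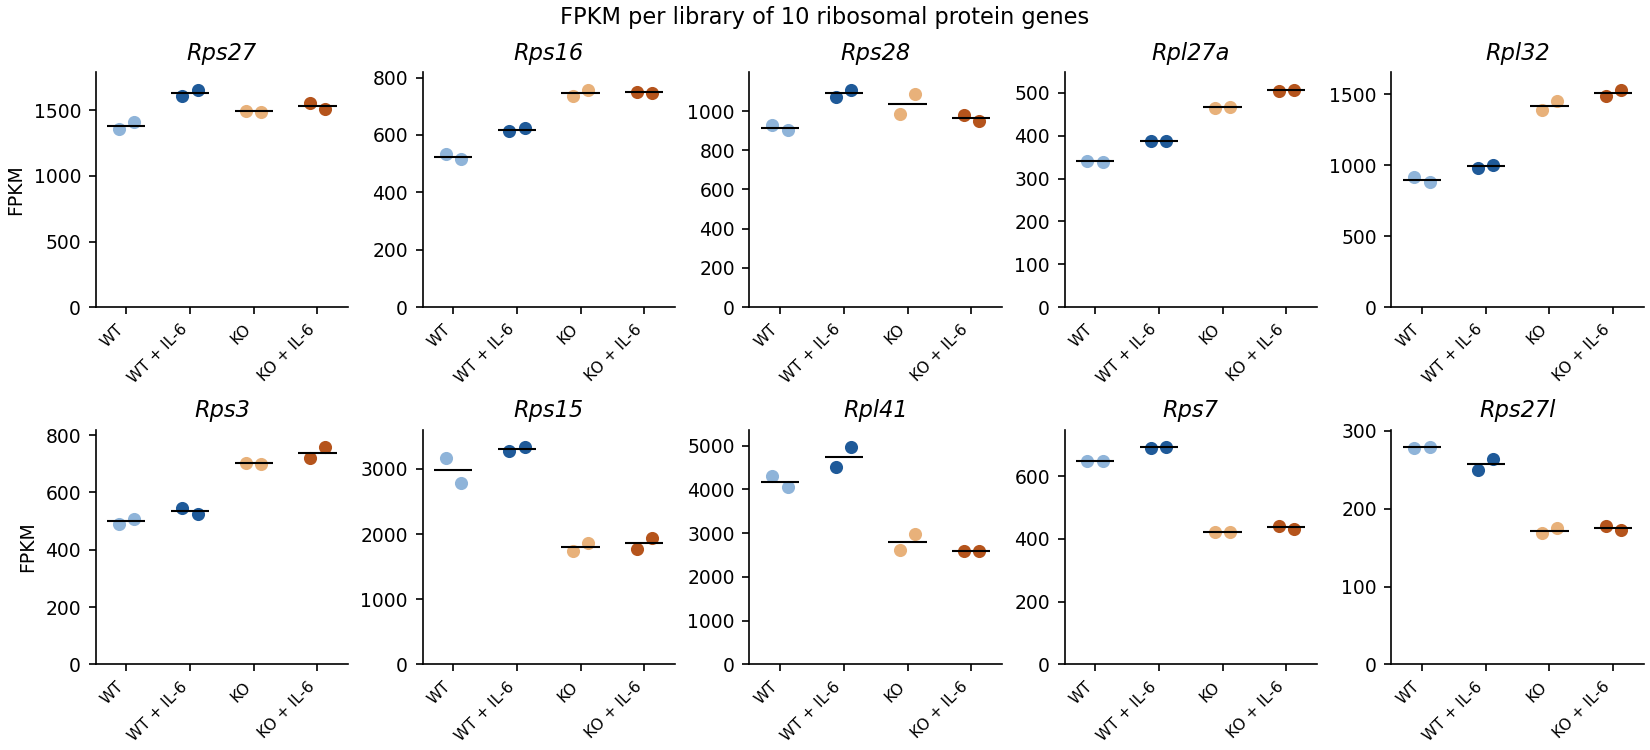
FPKM (y axes, each from 0) of 10 ribosomal protein genes in the 4 groups (x axes), with 1 point per library and a line at each group mean. Rps27, Rps16, Rps28 and Rpl27a are higher with IL-6 in WT, Rps15, Rpl41, Rps7 and Rps27l are lower in both KO groups, and Rpl32 and Rps3 are higher in both.

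KO and WT cells differed in the level of most members, in both directions. Without IL-6, 30 of 79 members were higher in KO and 29 lower (limma, Benjamini-Hochberg), where 36.4% of all genes were higher and 34.5% lower. With IL-6, 22 were higher and 36 lower, where 36.9% of all genes were higher and 34.8% lower. The share of members called, 59 and 58 of 79, was thus near the share of all genes called, 71.0% and 71.7%. The median difference was -0.03 log2 without IL-6 and -0.09 with it, and its sign depended on scaling. Without IL-6 it was 0.02 with equal total FPKM, 0.01 with equal totals of non-member genes and 0.04 after quantile normalization. With IL-6 it was 0.00, -0.02 and 0.03, and the split of 22 higher to 36 lower became 31 to 27, 30 to 30 and 29 to 21. Without WT with IL-6 replicate 1 the number higher was 14.

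KO libraries lay wholly above WT libraries for 35 members without IL-6 (43.3% of all genes) and for 28 with it (43.9% of all genes), and wholly below for 34 and 43 (41.7% and 41.9% of all genes). The KO and WT comparisons without and with IL-6 use no library in common, but they compare the same genotypes and share 1 estimate of spread. In both of them 21 members were called higher and 27 lower, 71 of 79 had the same sign, and 11 were called in neither. Of all genes, 71.0% were called without IL-6 and 71.7% with it. These are shares of single comparisons. The shares of all genes called in both, called in neither or with the same sign are not given here, so the joint counts have no background beside them. Whether members kept their calls more often than other genes was not tested. Across members the changes correlated with Pearson r = 0.965 and Spearman rho = 0.924 (n = 79, a description across genes that share libraries, 0.935 for Pearson without Rps4l). Rps28 was the only member with opposite calls, 0.18 (adjusted p = 0.0169) without and -0.17 (0.0194) under IL-6, and both were lost without replicate 2 of either group compared (0.0883 to 0.104 and 0.0904 to 0.0993). Of 59 calls without IL-6, 47 were kept without each library in turn, and of 58 with IL-6, 44.

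**Figure D4:**
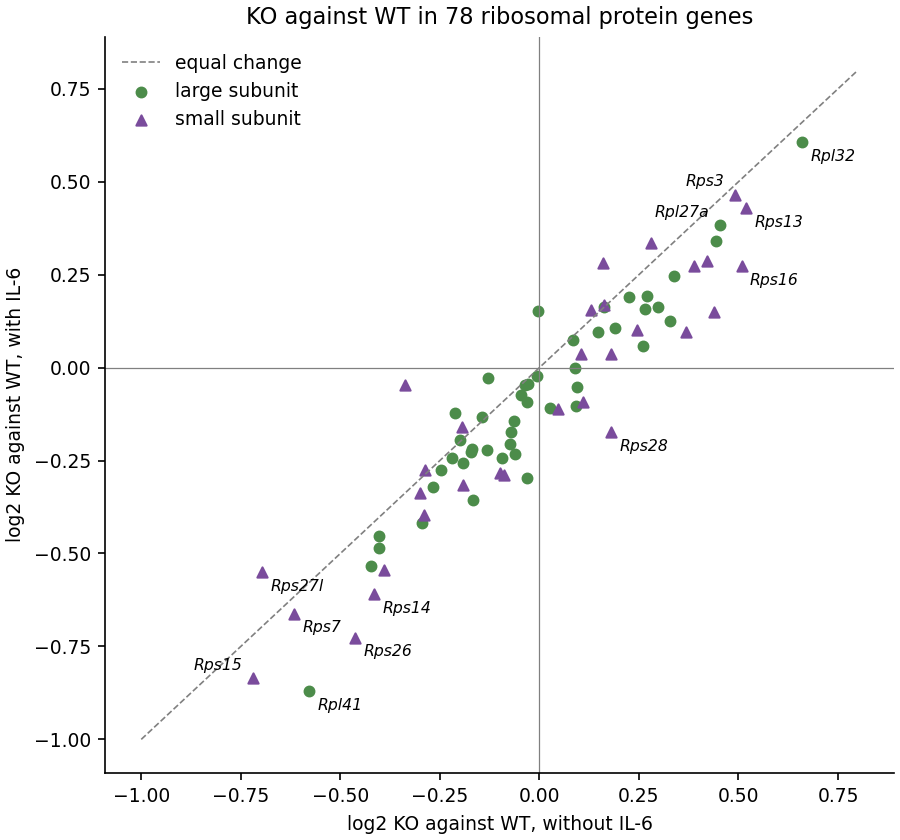
Log2 KO against WT without IL-6 (x axis) and with IL-6 (y axis) for 78 tested ribosomal protein genes, leaving out Rps4l, which is listed at 0 in WT. The points run along the diagonal from Rps15 and Rpl41 at the lower left to Rpl32 at the upper right.

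Of the 5 members with the largest falls in untreated KO, 4 belonged to the small subunit, but Rps4l, Rps13, Rps16 and Rps3 were among the 5 largest rises. Of the small subunit, 17 of 32 tested members were higher and 13 lower (median 0.107 log2). Of the large subunit, 13 of 47 were higher and 16 lower (median -0.035), where 36.4% of all genes were higher and 34.5% lower. Rps15, needed for export of the small subunit from the nucleus (chr10:80292453-80294114, plus strand), stood at 3174 and 2782 FPKM in WT against 1744 and 1865 in KO when untreated, and at 3278 and 3337 against 1772 and 1940 when treated. Its KO libraries were all below its WT libraries, at 60.6% of the untreated (-0.72 ± 0.074, adjusted p = 7.19e-05) and 56.1% of the treated WT mean (-0.83, adjusted p = 2.97e-05). Rps7, another protein of small subunit assembly (chr12:28630854-28635953, minus strand), was at 650 and 648 FPKM in WT against 423 and 423 in KO when untreated (-0.62 ± 0.0311, adjusted p = 1.32e-06), and at 691 and 694 against 442 and 432 with IL-6. Near-identical copies reduced this difference to -0.40 when their FPKM were added, since the X-linked copy Gm6472 was at 75.4 and 68.5 FPKM in WT against 145 and 148 in KO, both untreated. Within Rps7, the transcript Rps7-201 took 64.8% of the gene's FPKM in untreated WT but 48.4% in untreated KO, and Rps7-203 took 35.2% and 51.4%.

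Rpl41 (chr10:128548114-128549305, minus strand) was at 4296 and 4043 FPKM in WT against 2612 and 2982 in KO when untreated, and at 4510 and 4970 against 2593 and 2588 when treated. Its groups did not overlap between genotypes (-0.58 ± 0.0749, adjusted p = 0.000262, and -0.87, adjusted p = 2.52e-05). After quantile normalization, which assigns the highest genes the same values in each library, the difference was 0.20 and 0.02. Rps26 had 643 and 710 FPKM in KO when untreated, then 679 and 651 when treated, or 72.6% and 60.4% of WT (-0.46 ± 0.0646, adjusted p = 0.000401, and -0.73, adjusted p = 3e-05). Rps14, which lies at the platform of the small subunit and whose human counterpart is lost in the 5q deletion of myelodysplasia, was at 1379 and 1313 FPKM in WT against 971 and 1046 in KO (-0.42 ± 0.0519, adjusted p = 0.000214). All KO libraries of Rps26 and Rps14 lay below all WT libraries.

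Rps27l, a second copy of Rps27 known as a p53 target in human cells (chr9:66946086-66949516, plus strand), was at 279 and 280 FPKM in WT against 169 and 175 in KO when untreated, and at 250 and 264 against 178 and 172 when treated. All 4 KO libraries were lower (-0.70 ± 0.0408, adjusted p = 3.04e-06, and -0.55, adjusted p = 1.08e-05), while Rps27 itself was at 1359 and 1409 in untreated WT against 1495 and 1491 in untreated KO (0.11, adjusted p = 0.0339), and at 1612 and 1658 against 1555 and 1513 when treated (-0.09, adjusted p = 0.0633). Of the 8 genes listed for the path from ribosomal proteins through Mdm2 to p53, 2 were higher and 5 lower in untreated KO, where 71.0% of all genes were called, with Cdkn1a, the p53 target that halts the cell cycle, at -2.78 log2 (adjusted p = 1.22e-07).

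Second copies outside the naming rule also differed between genotypes. Rpl22l1, which can take the place of Rpl22, was at 64.1 and 71.7 FPKM in WT against 213 and 212 in KO when untreated (1.64 ± 0.0606, adjusted p = 2.43e-07), and at 62.2 and 67.9 against 227 and 227 with IL-6. Rpl22 itself was at 594 and 585 FPKM against 497 and 481 (-0.27 ± 0.0506, adjusted p = 0.00202), and at 619 and 680 against 529 and 509 with IL-6. The pair thus moved in opposite directions, without overlap between genotypes. Rpl36al was at 278 and 257 FPKM in untreated WT against 166 and 169 in KO (-0.67 ± 0.0562, adjusted p = 2.21e-05), while Rpl36a was called in neither KO comparison.

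Among the members higher in KO, Rpl32 of the large subunit (chr6:115805505-115808747, minus strand) was at 917 and 880 FPKM in WT against 1388 and 1452 in KO when untreated (0.66 ± 0.0415, adjusted p = 4.5e-06), and at 983 and 1001 against 1487 and 1534 with IL-6. KO stood at 158% of WT without IL-6 and 152% with it. Rps4l (chr6:148354656-148355598, plus strand) was listed at 0 in all 4 WT libraries and at 4.74, 4.45, 3.54 and 4.88 FPKM in the KO libraries, so no fold is given. Rps13 of the small subunit was at 280 and 280 FPKM in untreated WT against 414 and 389 in KO (0.52 ± 0.038, adjusted p = 1.07e-05). Rps16 was at 142% of untreated (0.51 ± 0.035, adjusted p = 7.51e-06) and 121% of treated WT (0.27, adjusted p = 0.000233), and Rps3, at the mRNA entry, at 140.5% and 138% (0.49 ± 0.0416, adjusted p = 2.45e-05, and 0.47, adjusted p = 3.13e-05). Rpl27a was at 341 and 339 FPKM against 465 and 467 in untreated cells (0.45 ± 0.0298, adjusted p = 5.82e-06). None of these members overlapped between genotypes.

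Within the P stalk the subunits moved apart. Rplp0 was at 2728 and 2661 FPKM in untreated WT against 1934 and 2087 in KO (-0.42 ± 0.052, adjusted p = 0.000197), and Rplp1 at 3310 and 3223 against 2358 and 2584 (-0.40 ± 0.0653, adjusted p = 0.000895). Rplp2 was at 634 and 574 against 729 and 682 (0.22 ± 0.0614, adjusted p = 0.0123), a call lost without WT replicate 2 or KO replicate 1. The direction of Rplp1 turned after quantile normalization. Of the members with roles outside peptide synthesis, Rpsa fell below WT in KO (2037 and 1980 against 1599 and 1662 FPKM, -0.30 ± 0.0461, adjusted p = 0.000669) and so did Rps6 (802 and 777 against 638 and 653 FPKM, -0.29 ± 0.044, adjusted p = 0.000621). Rps27a was higher (447 and 489 against 574 and 562 FPKM, 0.28 ± 0.0505, adjusted p = 0.00157).

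Direction in KO went with the chromosome that carries a member, a grouping chosen after the values were seen. All 14 members on chromosome 7 were called higher in untreated KO (median 0.405 log2, from 0.16 to 0.52). The 942 other tested genes of that chromosome had a median of 0.33, and 58.3% of them were called higher. With IL-6, 11 of the 14 were called higher (median 0.26), against 57.0% of the other genes (median 0.32). Both members on chromosome 6, Rpl32 and Rps4l, were higher, as were 70.9% of its other genes (median 0.68). On chromosome 10, 4 of 5 tested members were lower (median -0.46), against 60.5% of other genes (median -0.34). On chromosome 12 both Rps7 and Rps29 were lower, against 63.9% of other genes (median -0.40). Both Rps14 and Rpl17 on chromosome 18 were lower, against 56.4% of other genes (median -0.265). All 5 on chromosome 4 were lower, against 42.4% of other genes (median -0.12). Mixed directions occurred as well, as on chromosome 17, with 2 of 6 higher and 2 lower, against 34.3% and 28.4% of other genes.

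Over the 19 chromosomes with tested members, the median change of members and of other genes correlated with r = 0.934 without IL-6 and 0.937 with it (0.928 and 0.895 over 18 without chromosome 6), a description of points that share all libraries. Of the members called, 52 of 59 had the sign of their chromosome's other genes without IL-6 (88.1%, against 65.2% of other called genes) and 50 of 58 with it (86.2%, against 64.0%). Subtracting the chromosome's median brought the SD over 78 members, without Rps4l, from 0.302 to 0.173 log2 and from 0.303 to 0.179. For IL-6 in WT the correlation was 0.263 and 17 of 34 called members had the sign of their chromosome's other genes. The part of these chromosome-wide differences in the members' values was not tested.

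**Figure D5:**
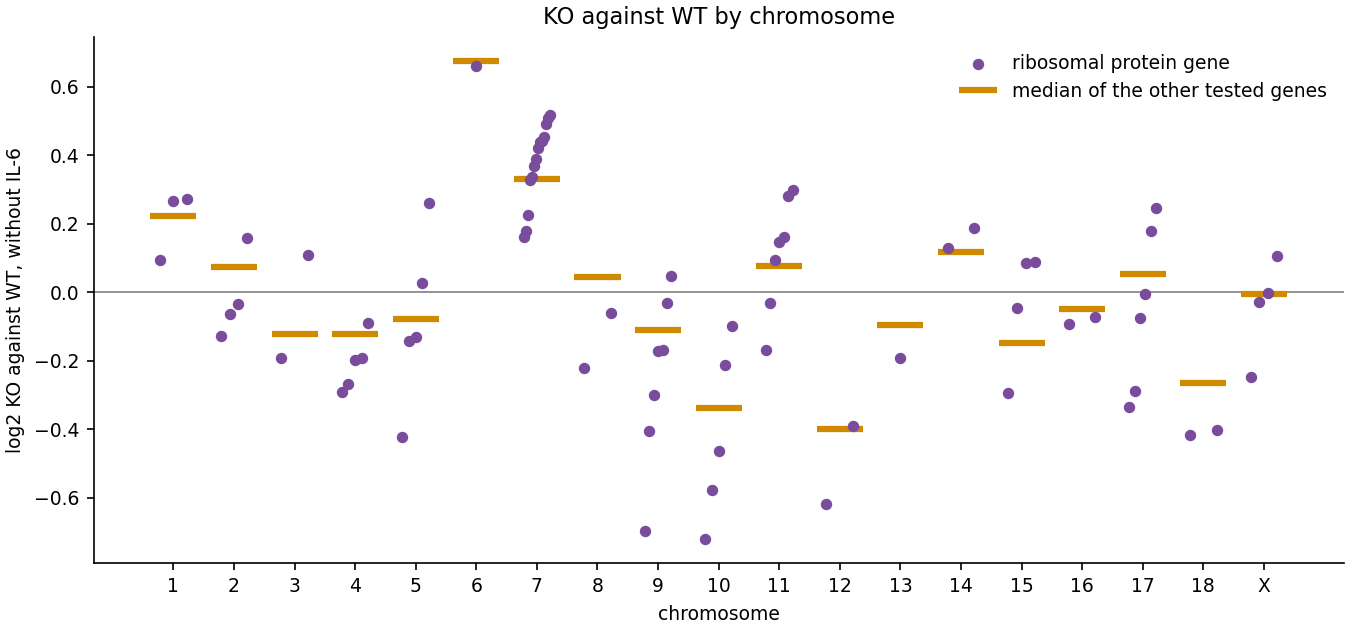
Log2 KO against WT without IL-6 (y axis) by chromosome (x axis), with points for tested ribosomal protein genes leaving out Rps4l, and lines at the median of the other tested genes of the chromosome. The 14 members on chromosome 7 all lie above 0 and the 5 on chromosome 4 all lie below it.

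Partners of the ribosomal proteins are given beside the share of all genes called in untreated KO, which was 36.4% higher and 34.5% lower, or 71.0% in all. Of 54 assembly factors, 30 were higher and 9 lower in untreated KO (median 0.22 log2), among them Npm1, a nucleolar chaperone (0.72, adjusted p = 8.59e-06), Fbl, the methyltransferase of ribosomal RNA (0.72, adjusted p = 6.14e-06), and Sbds, which was lower (-0.72, adjusted p = 7.83e-07). Of the 13 chaperones and importers dedicated to ribosomal proteins, 8 were higher and 2 lower (median 0.45), while none was called with IL-6 in either genotype. Of the 8 elongation and release factors 4 were higher and 2 lower, with Eef1g at 0.58 (adjusted p = 4.34e-06) and Eef2 at -0.46 (adjusted p = 0.000105). Of the 79 mitochondrial ribosomal proteins 32 were higher and 15 lower (median 0.10), which is fewer called than over all genes, with Mrps6 at -1.45 (adjusted p = 4.28e-07). Mtor was lower in KO (-0.44, adjusted p = 0.000978), Larp1 higher (0.30, adjusted p = 0.000433), and Myc at -0.02 (adjusted p = 0.758).

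Reads shared with near-identical copies limit what can be said of some members. Of 1098 annotated copies with at least 90% identity over at least 100 nucleotides, 1080 of them of a pseudogene class, 198 reached 1 FPKM, and together they held 9.81% to 10.7% as much FPKM as the members. For 42 members the copies held under 5% of the member's level, but for Rpl21 they held 191% and for Rpl23 101%. Adding the copies changed the sign of no member in KO against WT without IL-6 and the largest move of an IL-6 change in WT was 0.071 log2, for Rpl12. Rpl21 went from 0.143 to 0.085 and Rpl14 from 0.23 to 0.163 with IL-6 in WT. Such sums cannot show how reads were divided between a member and its copies, which was not tested. By transcript class, 89.8% to 90.3% of member FPKM was assigned to protein-coding transcripts, 4.3% to 4.63% to transcripts subject to nonsense-mediated decay and 2.35% to 3.03% to retained introns.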

How the data were processed

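Per the labels' protocols, total RNA went into a stranded mRNA library kit. The authors deposited transcript FPKM values, and HISAT2, Cufflinks 2.2.1 and GRCm38.p6 are named in the submitters' processing notes. FPKM of transcripts (142869 in the files, 97.1% named in GENCODE M21) were summed per gene here. Genes with at least 1 FPKM in at least 2 of 8 libraries were tested with limma 3.58.1 (R 4.3.3) on log2(FPKM + 1), with 1 fit over 4 groups, 4 residual degrees of freedom and Benjamini-Hochberg adjustment, calling at 0.05. The fit was also run on simulated data with independent noise per gene and no shift between libraries. That run cannot speak to the dependence of calls on scaling. A fold on this scale understates the change of low genes. Library depth was estimated from the steps of low values, of which 93.9% to 94.9% lay within 0.1 of a whole fragment. Copies were found with blastn 2.17.0, and tables were made with Python 3.11.15 and pandas 2.3.3.

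Members and lists were chosen with earlier results of these data known. Named members were, per comparison, up to 5 called rises and 5 called falls with libraries that did not overlap, the 5 highest and 5 lowest levels, role groups and second copies, up to 4 genes per other list, and Arid5a, Myc, Mtor and Larp1. Scaling, filter, pseudocount (0.1 and 5), variance trend, samples and members were varied. Deviations of same-numbered libraries correlated at -0.097 to 0.055, so no pairing by replicate number was detected and none entered the main fit. The labels do not say what same-numbered libraries share, and low correlations cannot settle it. Values of some members are not reported here by name, though they enter the counts and medians.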

Additional observations from a re-analysis of the deposited data

Results flagged for a closer look

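The change with IL-6 differed between WT and KO cells for the ribosomal protein genes Rps28 and Rps16 by the interaction test, and the text above gives their values in each library. The difference, KO minus WT, was -0.35 log2 for Rps28 and -0.23 for Rps16. Each of them lost the call without at least 7 of the 8 libraries, so the genes stand at the edge of what these libraries can call.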

How the results depend on the processing

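The members that rose with IL-6 in WT numbered 34, and 3 after quantile normalization, 13 with equal total FPKM, 17 with equal totals of non-member genes, 6 with no filter, 13 with no variance trend, and 0 with only the groups compared, where 2 residual degrees of freedom remain. Under each of the 3 scalings (quantile, equal total and non-member total) 1 member was lower, and the median change was 0.036, 0.091 and 0.109. Median ratio scaling was run as well, with library factors of 0.990 to 1.010, against 0.968 to 1.055 for equal total FPKM. Members' values under median ratio scaling are not given here, so the scalings shown are those with the larger shifts between libraries. In KO the median with IL-6 was 0.023 after quantile normalization. KO against WT without IL-6 had a median of 0.043, 0.021 and 0.009 under the 3 scalings, and with IL-6 of 0.029, 0.004 and -0.016, with 21 members lower after quantile normalization. Subtracting chromosome medians, chosen after seeing the data, gave -0.128 with IL-6. The difference between IL-6 changes kept 0 of its 3 calls after quantile normalization, with no filter and with no trend, and its median was -0.004, -0.045 and -0.053 under the 3 scalings. Rpl41 in KO against WT turned to 0.197 and 0.019 after quantile normalization. Leaving out single libraries gave 5 to 24 members higher and 0 lower with IL-6 in WT (median 0.127 to 0.174), 0 in KO (0.047 to 0.084), 24 to 30 higher and 25 to 30 lower in KO against WT without IL-6 (-0.064 to 0.023), 14 to 21 and 31 to 36 with IL-6 (-0.12 to -0.069), and 0 to 1 for the difference (-0.113 to -0.063).

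Pairing of the libraries by replicate number was not detected, and the labels do not say what the numbers share. With the replicate number as a block, 20 members rose with IL-6 in WT and 0 differed between the IL-6 changes.

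Members' shares were 12.8% in WT, 13.7% in WT with IL-6 and 12.9% in KO with IL-6 without mitochondrially encoded genes, and 10.7%, 11.4%, 10.97% and 11.4% in WT, WT with IL-6, KO and KO with IL-6 without the 3 highest members. Of 466 alternative values for 26 named results, 409 kept direction and call, 55 lost the call and 2 reversed. All 55 lost calls were of changes with IL-6 in WT or of the difference between IL-6 changes, and none was of KO against WT. The fit with only the groups compared was not among these values. With 2 libraries per group, changes of the size seen with IL-6 lie near what can be called. The causes of these shifts were not tested.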

Other observations

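Genes that store or break down ribosomes were measured beside those that build them. With IL-6 in WT, 8.3% of all genes rose and 7.41% fell, and in KO without IL-6 36.4% were higher and 34.5% lower. Of 11 hibernation and turnover genes, 2 rose and 1 fell with IL-6 in WT (median 0.03 log2), and in KO against WT 3 were higher and 5 lower without IL-6 (median -0.10) and 3 higher and 8 lower with it (median -0.30), where 71.0% and 71.7% of all genes were called. Serbp1, which binds idle ribosomes, was higher in KO (0.93, adjusted p = 1.31e-06 by limma). Of 14 tested genes of RNA polymerase I and its factors, 2 rose with IL-6 in WT, with Polr1a, its largest subunit, at 0.33 (adjusted p = 0.0186, or 0.075 to 0.0964 without either untreated WT library or WT with IL-6 replicate 2), and 5 were higher and 2 lower in KO without IL-6. Of 18 genes that control TOP mRNAs through mTORC1, 5 were higher and 8 lower in KO without IL-6, near the 71.0% of all genes called, among them Deptor, an mTOR inhibitor, at -1.61. Of 16 proliferation genes 1 rose and 1 fell with IL-6 in WT (median 0.02), where 34 of 79 ribosomal protein genes rose.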
